A study of Mus musculus with 33 samples.

Results

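The amyloid precursor protein gene App, its relatives Aplp1 and Aplp2, and 6 genes of the enzymes that cut their proteins were described across mouse hippocampus with and without a human APP transgene and with and without an agonist of the liver X receptors (LXR). The 9 genes are App, Aplp1, Aplp2, Bace1, Adam10, Psen2, Ncstn, Aph1a and Psenen, out of 18194 genes named by the array. They were chosen by name, with every probe set (a group of short probes that gives 1 signal) annotated to 1 of them and to no other gene. This gave 27 probe sets, of which 22 passed a filter on low signals and were tested. No probe set of these genes passed the test in any comparison. For 18 of the 22 (81.8%), the 95% interval of the genotype difference lay within a change of 1.25-fold either way. The share over all probe sets tested was 69.9%. A constant was added to every signal before the fit, which understates fold changes of dim probe sets. For these, such as that of Ncstn, the bound is thus looser in terms of the signal itself.

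All mice had the strain label SJL × C57BL/6J. Their age was 5 months in the treatment protocol and 20 weeks in the design text, and the right hippocampus of each was read on 1 array. The Tg2576 animals were heterozygous males that carry human APP with the Swedish mutation of familial Alzheimer's disease. The prion promoter drives this transgene, so it is not limited to the cells that use mouse App. Of the 3 groups of 11, the first held wild-type littermates on vehicle (Tween 80 and sodium carboxymethylcellulose), the second Tg2576 on the same vehicle and the third Tg2576 dosed by oral gavage with TO901317, a synthetic LXR agonist, at 50 mg per kg per day. Dosing lasted 7 days per the design text and 5 days per the treatment protocol, and no wild-type mouse on TO901317 was analysed here.

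App encodes a membrane protein that secretases cut in sequence. The alpha-secretase Adam10 sheds the ectodomain by a cut within the amyloid-beta stretch, whereas the beta-secretase Bace1 cuts at its start, and gamma-secretase then releases the amyloid-beta peptide from the stub that Bace1 leaves. Gamma-secretase is a complex of a presenilin such as Psen2, which holds the active site, with nicastrin (Ncstn), Aph1a and Psenen (PEN-2). Aplp1 and Aplp2 are cut by the same enzymes but lack the amyloid-beta sequence.

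Upstream sequences are shown for the 3 precursor genes, because their brightest probe sets varied together from animal to animal in the deposited signals. With every array given the same distribution of signals (quantile normalization), this was smaller or not seen. There r fell from 0.79 to -0.07 for App with Aplp1, 0.60 to 0.0043 for App with Aplp2 and 0.66 to 0.27 for Aplp1 with Aplp2. A link of these sequences to the shared variation was not tested. Each is the 250 bases before the start of the gene in RefSeq, build GRCm38.p6, minus strand, 5′ to 3′, with capitals for GGGCGG or its complement CCGCCC, the GC box. The windows lie at chr16:85173708-85173957 for App, chr7:30445583-30445832 for Aplp1 and chr9:31211849-31212098 for Aplp2.
App: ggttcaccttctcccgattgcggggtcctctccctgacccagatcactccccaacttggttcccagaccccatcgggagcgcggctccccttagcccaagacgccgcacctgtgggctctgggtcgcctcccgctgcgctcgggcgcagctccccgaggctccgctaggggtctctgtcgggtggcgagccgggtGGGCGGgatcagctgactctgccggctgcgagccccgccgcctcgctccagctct
Aplp1: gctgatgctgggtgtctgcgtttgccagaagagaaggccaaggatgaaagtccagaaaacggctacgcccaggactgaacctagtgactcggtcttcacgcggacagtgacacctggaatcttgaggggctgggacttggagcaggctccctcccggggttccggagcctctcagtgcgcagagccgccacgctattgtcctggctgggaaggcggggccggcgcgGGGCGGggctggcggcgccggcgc
Aplp2: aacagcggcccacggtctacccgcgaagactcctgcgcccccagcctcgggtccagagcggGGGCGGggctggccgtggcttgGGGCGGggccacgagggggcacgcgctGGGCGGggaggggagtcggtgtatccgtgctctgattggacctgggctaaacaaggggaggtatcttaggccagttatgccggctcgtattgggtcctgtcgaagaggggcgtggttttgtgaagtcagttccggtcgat
The App window held 1 GC box and 70.8% G and C, the Aplp1 window 1 GC box and 66% G and C, and the Aplp2 window 3 GC boxes and 66.4% G and C. The median over all windows of this length was 52.4% G and C. A table of RefSeq promoters held 10 windows for 8 of the 9 genes. GGGCGG, on either strand, occurred in 6 of these 10 windows and in 32.7% of 32851 windows of the same length. TATAAA occurred in 0 of the 10 and in 12.4% of all. AGGTCA, the core hexamer that nuclear receptors such as LXR read, occurred in 2 of the 10, in Ncstn and in 1 window of Psenen, and in 14% of all. The LXR direct repeat in its exact form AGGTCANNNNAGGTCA occurred in 0 of the 10 and in 0.0152% of all windows. Motifs were searched on both strands, and these matches describe letters in a window, not binding.

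The values were linear array signals scaled to a common mean, with array medians from 19.5 to 28.9. All 8 pyramidal neuron markers and all 8 dentate granule cell markers passed the filter on low signals, and the 2 red blood cell markers that the array named did not. Abca1, a direct LXR target, served as a check of dosing: its mean signal was 310.7 ± 24.0 on vehicle and 488 ± 89.2 on TO901317 in Tg2576 (SD, n = 11 each), and this rise of 0.61 on the log2 scale passed with limma (adjusted p = 0.000164). Vehicle Tg2576 replicates 3 and 4 stood apart in the Gapdh ratio, a reading of RNA quality. This is the log2 signal of the 3′ probe set of Gapdh over that of its 5′ one. It was 0.11 and 0.08 in them and at most -0.077 on the other 31 arrays. The actin ratio read 1.18 in replicate 3 and 1.26 in replicate 4, within its span of 0.77 to 1.46 over all arrays. Whether the RNA of these animals was poorer beyond the Gapdh ratio was not tested. Nothing in the labels says how the animals were spread over extractions or scans. Precision is bounded by the 11 arrays in a group.

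No difference of the mouse App gene between groups passed the test, and its intervals were narrow. Its brightest probe set, 1427442_a_at, read between 3321 and 4609 in wild type, with a median of 3747. In vehicle Tg2576 it read between 3339.6 and 3882 with a median of 3515, and with TO901317 between 3340.2 and 4291 with a median of 3938. The 3 groups shared nearly the same lowest value, and the vehicle Tg2576 animals lacked the high values of the others: 2 of 11 lay above the wild-type median, and 7 of 11 treated animals lay above the highest vehicle Tg2576 animal. Group means were 3790.2 ± 401, 3533 ± 179 and 3844 ± 281 (SD, n = 11 each). The log2 difference of vehicle Tg2576 from wild type was -0.10 (95% interval -0.19 to 0.0019, limma adjusted p = 0.524). In this comparison 0.159% of 27022 probe sets passed, and 0 of the 22 tested here. TO901317 against vehicle in Tg2576 gave 0.12 (95% interval 0.022 to 0.22, adjusted p = 0.359), in a comparison where 0.141% of the probe sets passed, again 0 of these 22.

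The second App probe set, 1420621_a_at, stood in another order. It read between 1809.5 and 2528 in wild type (median 2150.4), between 2056 and 2448 in vehicle Tg2576 (median 2293), and between 2119.7 and 2642 with TO901317 (median 2396). All groups overlapped, with 9 of 11 vehicle and 10 of 11 treated Tg2576 animals above the wild-type median. The means were 2173 ± 214, 2259 ± 118 and 2394 ± 180.4 (SD, n = 11 each). Vehicle Tg2576 differed from wild type by 0.06 on the log2 scale (95% interval -0.038 to 0.16, adjusted p = 0.741), and the drug by 0.08 within Tg2576 (adjusted p = 0.571). The comparison of treated Tg2576 with wild type, which spans genotype and drug at once, gave 0.14 (95% interval 0.044 to 0.24, adjusted p = 0.325). That comparison called 0.144% of the probe sets and 0 of these 22. With quantile normalization, which gives every array the same distribution of signals, this value was again 0.14 and its adjusted p was 0.0463. With 5 marker scores of cell types as covariates it was 0.08, with an adjusted p of 0.89. Both Tg2576 groups together exceeded wild type by 0.10 (95% interval 0.016 to 0.18, adjusted p = 0.47), and that comparison called 0.148% of the probe sets and 0 of these 22. The probes are of mouse sequence and may miss the human transcript, so neither probe set checks the transgene or the genotype labels.

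**Figure D1:**
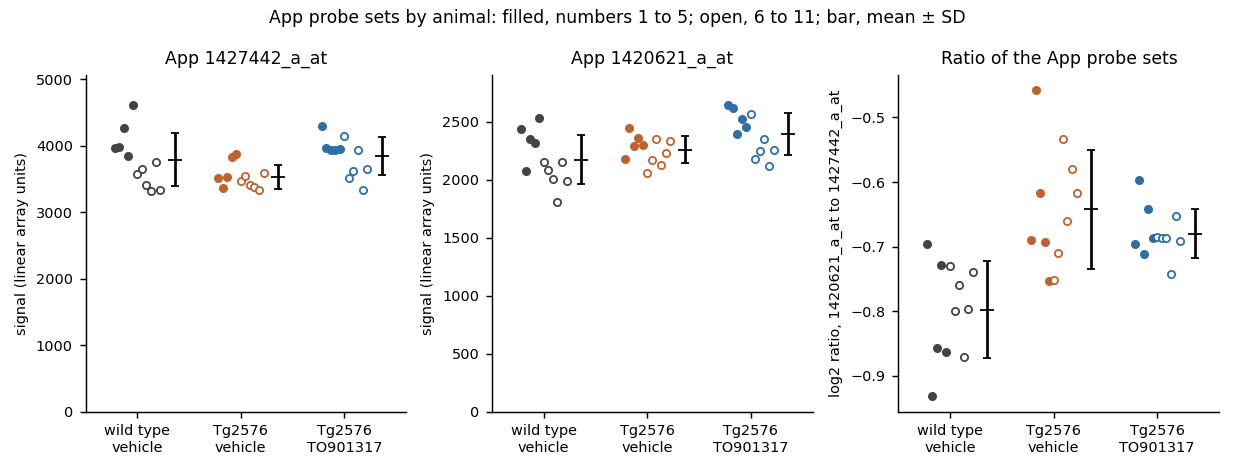
Signals of both tested App probe sets (left and middle, linear array units, axis from 0) and their log2 ratio within each array (right) for 33 animals in 3 groups. Points are animals, filled for numbers 1 to 5 and open for 6 to 11, and bars are the mean ± SD. The Tg2576 groups overlap wild type in both signals and in the ratio.

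The ratio of the App probe sets within each array set more carriers apart from wild type than either signal did. This ratio, the log2 value of 1420621_a_at minus that of 1427442_a_at, was examined after the signals had been seen to differ in sign. In wild type it ran from -0.93 to -0.70 with a median of -0.80. It ran from -0.75 to -0.46 in vehicle Tg2576 (median -0.66) and from -0.74 to -0.60 with TO901317 (median -0.69). Of the 22 carriers of the transgene, 16 lay above the highest wild-type animal, 8 in each Tg2576 group, and the rest lay within the wild-type range. By signal, 0 carriers exceeded the highest wild-type animal with 1427442_a_at and 3 with 1420621_a_at. The means were -0.80 ± 0.07, -0.64 ± 0.09 and -0.68 ± 0.04 (SD, n = 11 each).

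The same ratio was fitted with limma for all 10275 pairs of a gene's brightest and further probe sets, over 6047 genes. Vehicle Tg2576 exceeded wild type by 0.16 in the App ratio (95% interval 0.087 to 0.22, adjusted p = 0.0814), and both Tg2576 groups together did so by 0.14 (95% interval 0.077 to 0.20, adjusted p = 0.0595). Neither passed the threshold of 0.05, although App held rank 6 of 10275 by p in both comparisons. The first comparison called 0.0292% of all pairs, the second also 0.0292%, and neither called any of the 13 pairs of these genes. Treated Tg2576 against wild type gave 0.12 (adjusted p = 0.327), with 0.0389% of pairs called, and the drug gave -0.04 within Tg2576 (adjusted p = 0.837), with 0.00973% of pairs called. The adjusted p depended on how the fit modelled the spread. A fit without a trend of the spread with signal was made first and gave 0.531 and 0.508 for the first and second comparisons, and the trend was added with that result known. With quantile normalization the adjusted p was 0.355 and 0.104, and without vehicle Tg2576 replicates 3 and 4 it was 0.30 and 0.0881. The second comparison passed, at 0.0412, with the Gapdh ratio as a covariate. With each of the 33 arrays left out in turn, the adjusted p of the first ran from 0.0462 to 0.24. Among these fits it passed only without vehicle Tg2576 replicate 5, and it was highest without vehicle Tg2576 replicate 2. The size moved less: within animals numbered 1 to 5 and 6 to 11 the genotype difference was 0.17 and 0.14 (adjusted p = 0.232 and 0.293). With quantile normalization it was 0.13. These number classes are parts of the same arrays in which the ratio was chosen, so they are no independent check of it. A share of 0.0487% of all pairs had at least as many carriers beyond the wild-type range on 1 side as App, a bar set by App itself.

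The other 2 App probe sets, 1438374_x_at and 1438373_at, were dim. Their group means were at most 4.65, below the filter limit of 13.9, and they were not tested.

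Aplp1, the neuronal member of the family, had both its probe sets at one level in the 3 groups. The brightest, 1435857_s_at, read 2555 to 3489.6 in wild type (median 2957), 2286 to 3244 in vehicle Tg2576 (median 2938) and 2291 to 3367 with TO901317 (median 3044). The ranges lay on top of each other. Genotype moved it by -0.03 (95% interval -0.17 to 0.096) and the drug by 0.05 (95% interval -0.078 to 0.18). The second probe set, 1416134_at, had means of 1619 ± 199, 1595 ± 191 and 1603 ± 189.9 (SD, n = 11 each), with a genotype difference of -0.02 and a drug difference of 0.0076. In fold terms the 95% interval of this probe set ran from 0.893 to 1.09 for genotype and from 0.91 to 1.11 for the drug.

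Aplp2, the widely expressed member, was measured by 5 probe sets. Its brightest, 1421887_a_at, read 1431 to 2012 in wild type (median 1684), 1409 to 1849 in vehicle Tg2576 (median 1555) and 1525 to 1808 with TO901317 (median 1645). Vehicle Tg2576 animals were lower at the median, within the wild-type range for all but the lowest animal. The genotype difference was -0.08 (95% interval -0.19 to 0.018, adjusted p = 0.62) and the drug difference 0.06 (95% interval -0.043 to 0.16). The next, 1423739_x_at, had the tightest spread of all 22, with means of 1492 ± 106, 1425 ± 69.4 and 1483 ± 66.6 (SD, n = 11 each) and differences of -0.06 and 0.06. The third, 1421889_a_at, had means of 767 ± 77.5, 784 ± 60.8 and 819 ± 55.7, and the fifth, 1421888_x_at, had means of 107 ± 17.8, 109 ± 17.2 and 110.0 ± 17.7.

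Aplp2 1432344_a_at was the most variable of the Aplp2 probe sets. It read from 37.0 to 212 in wild type (median 121), from 37.4 to 229.7 in vehicle Tg2576 (median 97.1) and from 77.1 to 197 with TO901317 (median 145). Its residual SD of 0.58 on the log2 scale was the largest of the 22, whose median was 0.17 against 0.21 over all probe sets tested. The drug difference of 0.42 had an interval from -0.07 to 0.90 (adjusted p = 0.558), and without vehicle Tg2576 replicates 3 and 4 it was 0.19.

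Bace1, the enzyme that starts amyloid-beta production, passed for neither genotype nor drug. Its brightest probe set, 1455826_a_at, read 234 to 391 in wild type (median 343), 277 to 392 in vehicle Tg2576 (median 331) and 301 to 373 with TO901317 (median 331). The lowest animal of all was wild-type replicate 10, and the medians of both Tg2576 groups were alike. Genotype gave -0.02 (95% interval -0.14 to 0.11, adjusted p = 0.967) and the drug 0.03 (95% interval -0.10 to 0.15, adjusted p = 0.926). The 3 dimmer probe sets gave genotype differences of 0.03, -0.01 and 0.02 and drug differences of 0.0079, 0.08 and -0.04, in order of signal.

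Adam10, the alpha-secretase, was covered by 3 tested probe sets that differed in spread. The brightest, 1428103_at, read 419 to 648 in wild type (median 477), 430.0 to 606 in vehicle Tg2576 (median 509) and 405 to 646 with TO901317 (median 526). Its ranges coincided, and its differences were 0.02 for genotype (95% interval -0.14 to 0.18) and -0.03 for the drug (95% interval -0.19 to 0.13). The other 2 had a long lower tail in vehicle Tg2576. Probe set 1450105_at read 93.3 to 159.6 in wild type (median 126), 41.1 to 165 in vehicle Tg2576 (median 137) and 104 to 173 with TO901317 (median 142). Vehicle Tg2576 replicates 3, 4 and 5 gave 43.6, 41.1 and 62.1, and every other animal of the study gave at least 93.3. Probe set 1450104_at read 12.4, 4.53 and 14.1 in the same 3 animals.

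Both dimmer Adam10 probe sets gave smaller differences without 2 of the low animals, with vehicle Tg2576 replicate 5 kept. The drug differences were 0.28 for 1450105_at (95% interval -0.056 to 0.61, adjusted p = 0.573) and 0.37 for 1450104_at (95% interval -0.037 to 0.77, adjusted p = 0.529). Without vehicle Tg2576 replicates 3 and 4 they were 0.03 and 0.11, and with the Gapdh ratio as a covariate 0.05 and 0.12. The genotype differences were -0.20 and -0.14 with all arrays and 0.04 and 0.12 without these 2 animals, so their sign turned. The fourth Adam10 probe set, 1460083_at, had group means between 3.51 and 5.53 and was not tested.

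Among the gamma-secretase genes, Psenen, which stabilises and activates the complex, had the most even signal. Its probe set 1415679_at read 667 to 816 in wild type (median 724), 599 to 769 in vehicle Tg2576 (median 711) and 667 to 789.7 with TO901317 (median 710.2). One animal, vehicle Tg2576 replicate 9, lay below all wild-type values. The differences were -0.03 for genotype (95% interval -0.12 to 0.052) and 0.03 for the drug (95% interval -0.054 to 0.12).

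Psen2 and Ncstn each rested on 1 tested probe set of low signal. Psen2 1425869_a_at read 57.4 to 82.4 in wild type (median 73.3), 64.7 to 93.7 in vehicle Tg2576 (median 74.8) and 59.6 to 91.6 with TO901317 (median 73.2). The medians nearly coincided, and the genotype difference was 0.10 (95% interval -0.034 to 0.23, adjusted p = 0.666). Ncstn 1418570_at, for the subunit that receives the substrate, read 32.0 to 51.0 in wild type (median 38.9), 23.4 to 81.2 in vehicle Tg2576 (median 44.1) and 33.2 to 55.1 with TO901317 (median 39.5). Both the lowest and the highest animal of the study were vehicle Tg2576 (replicates 5 and 11), and the genotype difference was 0.10 (95% interval -0.10 to 0.30, adjusted p = 0.804). It was 0.16 without replicate 5 and 0.03 without replicate 11. A second Psen2 probe set, 1431542_at, had group means of 10.2 to 11.8, and a second Ncstn probe set, 1444532_at, of 2.68 to 3.76, and neither was tested.

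Aph1a, the scaffold subunit, had 3 tested probe sets with differences of either sign. The brightest, 1424980_s_at, read 111 to 242 in wild type (median 138), 63.2 to 203 in vehicle Tg2576 (median 142) and 104 to 176 with TO901317 (median 143). Vehicle Tg2576 replicates 3, 4 and 5 were again the lowest, at 63.9, 63.2 and 77.3. Its differences of -0.23 for genotype (95% interval -0.52 to 0.055, adjusted p = 0.625) and 0.20 for the drug (adjusted p = 0.65) became -0.05 and 0.03 without replicates 3 and 4. Probe set 1451554_a_at gave 0.0069 and 0.14, with the highest value of 169 in vehicle Tg2576 replicate 8, and without that animal -0.11 and 0.26, and 1424979_at gave 0.09 and -0.11.

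**Figure D2:**
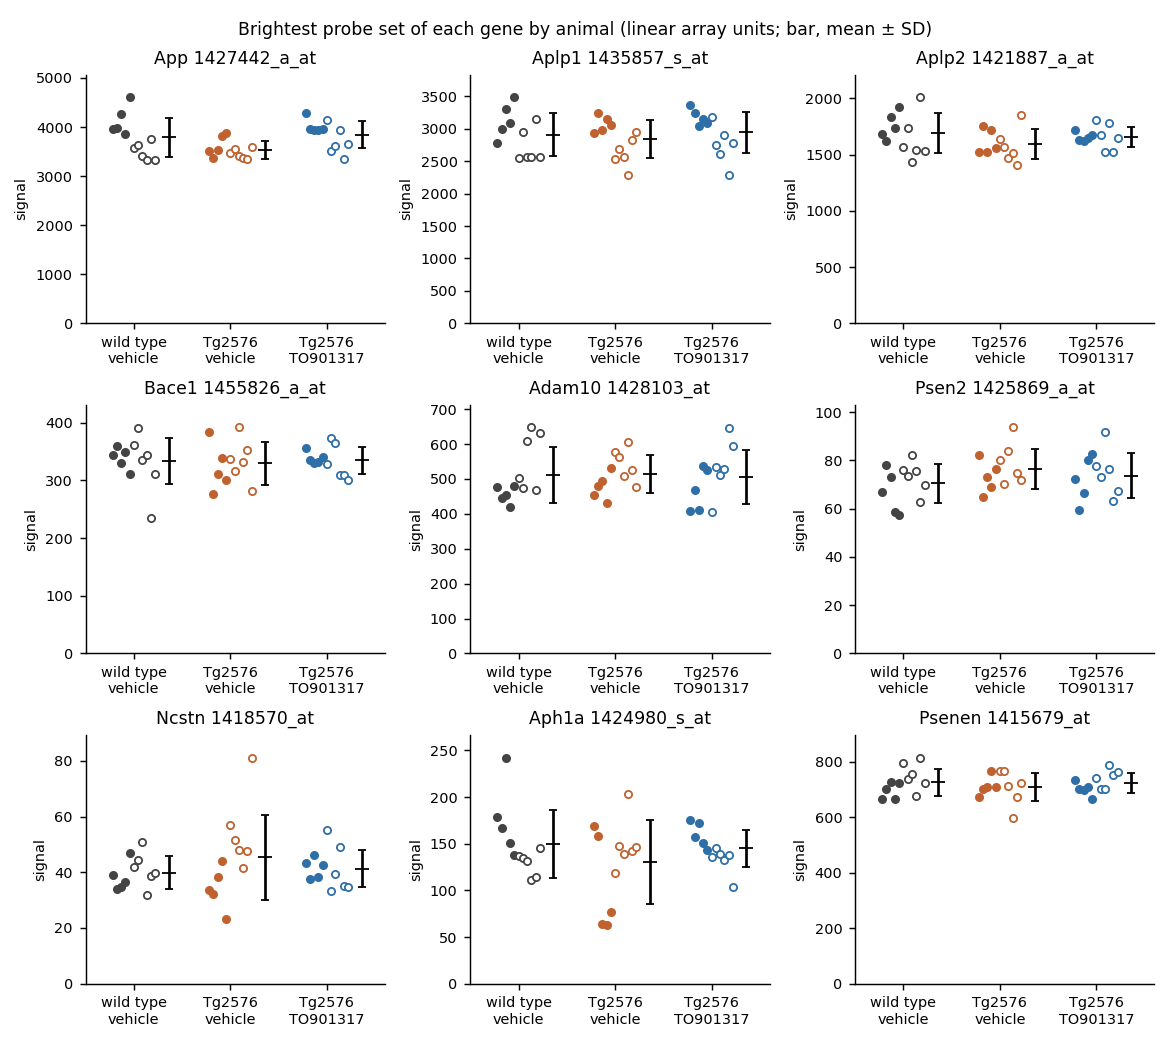
Signal of the brightest probe set of each of the 9 genes by animal (linear array units, each axis from 0). Points are animals, filled for numbers 1 to 5 and open for 6 to 11, bars are the mean ± SD of 11 animals, and the groups overlap for every gene.

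Across the 22 tested probe sets, genotype differences ran from -0.23 to 0.10 on the log2 scale, 10 above 0 and 12 below. This put 45.5% above 0, beside 50.1% of all probe sets. The median of the 22 was -0.01, and that of all 27022 probe sets was 0.00031. Drug differences ran from -0.11 to 0.42, 17 above 0 and 5 below, with a median of 0.06 against 0.0037 for all probe sets. This put 77.3% above 0, beside 51.3% of all probe sets. By the brightest probe set of each gene, Adam10, Psen2 and Ncstn lay below 0 for the drug, at -0.03, -0.04 and -0.07, and the other genes above. These 22 values share probe targets and arrays, and both comparisons share the vehicle Tg2576 arrays. No test was made of the list. At an unadjusted p under 0.05 were 0 of the 22 for genotype and 1 for the drug (App 1427442_a_at), or 4.55%, beside 9.7% and 10.5% of all probe sets. The 95% interval lay within a change of 1.25-fold either way for 18 of 22 genotype differences and 17 of 22 drug differences (81.8% and 77.3%), beside 69.9% and 69.3% of all probe sets. No probe set of the 9 genes had groups that did not overlap, in any of the 3 pairs of groups. Over all probe sets this occurred in 0.0259% for vehicle Tg2576 and wild type, 0.0074% for treated and vehicle Tg2576, and 0.0148% for treated Tg2576 and wild type.

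**Figure D3:**
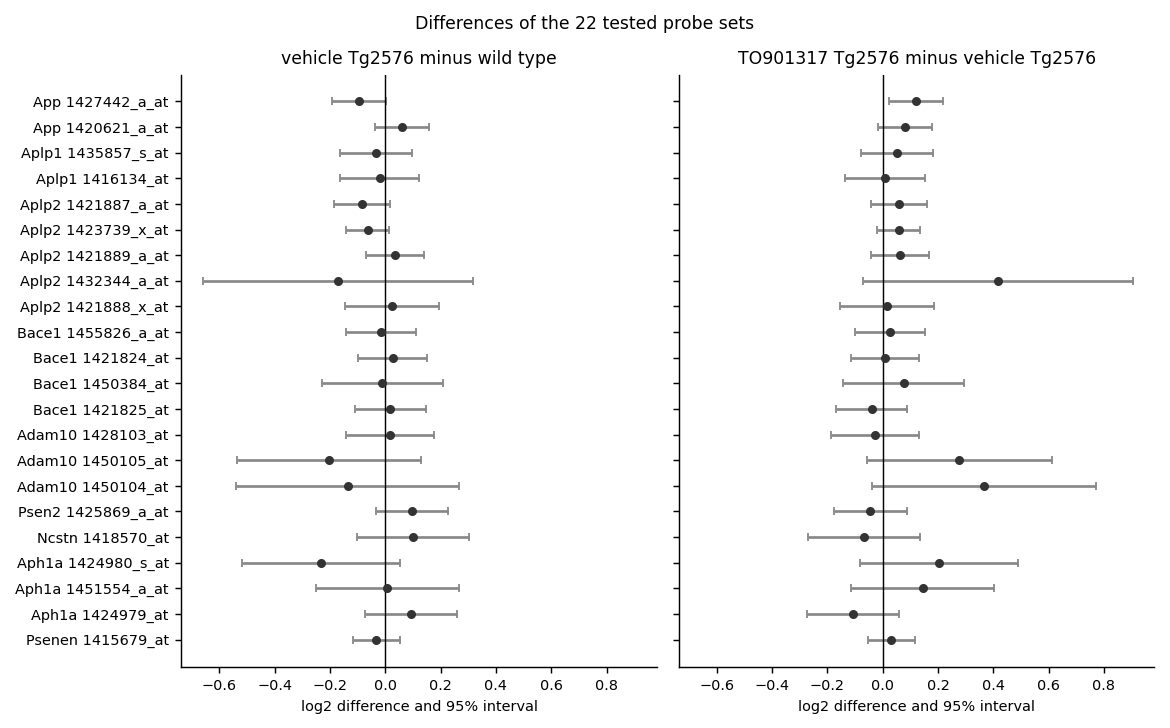
Log2 differences of the 22 tested probe sets with their 95% intervals from the limma fit, for genotype (left) and drug (right). Points are the fitted differences and lines the intervals; the widest are Aplp2 1432344_a_at, Adam10 1450104_at and 1450105_at and Aph1a 1424980_s_at.

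Some marker lists of cell types had medians away from 0 in each comparison, and others lay near 0. All were described, not tested. In bulk tissue fewer cells of a type and less RNA per cell cannot be told apart. Between vehicle Tg2576 and wild type the median log2 difference was -0.20 over 8 dentate granule cell markers, -0.17 over 8 astrocyte markers, -0.16 over 7 oligodendrocyte markers, 0.14 over 6 thalamus and striatum markers and 0.38 over 8 meningeal and fibroblast markers. Members of these lists went both ways, except the oligodendrocyte markers, of which 0 of 7 had a higher mean signal in vehicle Tg2576. Higher there were 2 of 8 dentate, 2 of 8 astrocyte, 5 of 6 thalamus and striatum and 7 of 8 meningeal markers. The pyramidal, microglia, endothelial and choroid plexus medians were -0.0020, 0.02, -0.05 and -0.07. Of these lists 4 of 8, 6 of 8, 3 of 7 and 1 of 9 markers had a higher mean signal in vehicle Tg2576. For the drug within Tg2576, 17 of the 22 probe sets of the 9 genes lay above 0 (77.3%, beside 51.3% of all probe sets). In that comparison the marker medians were 0.19 for choroid plexus (9 of 9 higher), 0.17 for endothelial (5 of 7), 0.12 for oligodendrocyte (6 of 7), -0.20 for meningeal (0 of 8) and -0.15 for thalamus and striatum markers (0 of 6). The pyramidal, dentate, astrocyte and microglia medians were then 0.05, 0.03, 0.04 and -0.02. The summed meningeal signal ran from 555 to 2088 in wild type, 666 to 2291 in vehicle Tg2576 and 493 to 1682 with TO901317. The summed choroid plexus signal ran from 379.9 to 10791, 182 to 7616 and 951 to 8860.4 in the same order. With scores of the astrocyte, oligodendrocyte, dentate, choroid plexus and meningeal lists as covariates the genotype difference of App was -0.18 for 1427442_a_at (adjusted p = 0.558) and -0.01 for 1420621_a_at (adjusted p = 0.985). The part of the other lists in these values was not tested.

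Probe sets of 1 gene varied together in 3 of 13 pairs, 1 each of App, Aplp1 and Aplp2. Over all 10275 pairs of a gene's brightest and further probe sets, 2.37% had an r at least as high as the lowest of these 3. That bar was set by the 3 themselves and is not the test used here, so 2.37% is not a rate to compare with 3 of 13. The median r was 0.13 over all pairs, against 0.24 over the 13. Each animal's deviation from its group mean was compared between the brightest and every other tested probe set of a gene with permutation tests within groups (100000 resamples, two-sided) over 33 animals. The App pair had r = 0.80 and rho = 0.76 (adjusted p = 4.33e-05 and 8.67e-05), the Aplp1 pair r = 0.81 and rho = 0.83 (adjusted p = 4.33e-05 and 6.5e-05), and Aplp2 1421887_a_at with 1423739_x_at r = 0.82 and rho = 0.76 (adjusted p = 4.33e-05 and 6.5e-05). Their raw p of 1e-05 for r is the smallest that the resamples can give. Without the 2 animals farthest from the median, r was 0.73, 0.81 and 0.78. Within animals numbered 1 to 5 (n = 15) and 6 to 11 (n = 18), r was 0.38 and 0.77 for App, 0.51 and 0.61 for Aplp1, and 0.67 and 0.86 for Aplp2. With quantile normalization the App pair fell to 0.34 and no longer passed.

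The other 10 pairs did not pass. Among these, r ran from -0.11 for Bace1 1455826_a_at with 1421825_at to 0.34 for Bace1 1455826_a_at with 1421824_at. For Adam10, the brightest probe set had r = 0.24 with 1450105_at and 0.06 with 1450104_at, and for Aph1a the brightest had r = 0.03 with 1451554_a_at and 0.22 with 1424979_at. Thus no Bace1, Adam10 or Aph1a probe set passed when paired with the brightest of its gene. Dimmer probe sets of a gene were not compared with each other.

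Both dimmer Adam10 probe sets and Aplp2 1432344_a_at were lower in animals with a higher Gapdh ratio. Of the 22, 5 were related to this ratio over 33 animals by Pearson's r, in deviations from the group means (permutation test, two-sided, adjusted over 22). Of all 27022 probe sets, 9.84% had an r at least as large in size as the smallest of these 5. That bar was set by the 5 themselves and is not the permutation test, so 9.84% is not a rate to compare with 5 of 22. Adam10 1450105_at had r = -0.91 and rho = -0.82 (adjusted p = 0.00011 for each). Aplp2 1432344_a_at had r = -0.81 and rho = -0.79 (adjusted p = 0.00011 for each), and Adam10 1450104_at had r = -0.81 and rho = -0.64 (adjusted p = 0.000293 and 0.00556). Without vehicle Tg2576 replicates 3 and 4, the farthest from the median, r was -0.81, -0.78 and -0.69. It was -0.88, -0.64 and -0.68 within animals numbered 1 to 5, and -0.74, -0.77 and -0.55 within 6 to 11. Aph1a 1424980_s_at had r = -0.57 (adjusted p = 0.0471) but rho = -0.22 (adjusted p = 0.413), and without those 2 animals r was -0.22, so its relation rested on them. Aplp1 1416134_at went the other way, with r = 0.53 and rho = 0.61 (adjusted p = 0.00418 and 0.00132), though r was 0.16 and 0.43 within the number classes. App 1427442_a_at passed by rank alone, with rho = 0.44 (adjusted p = 0.0258) and r = 0.28 (adjusted p = 0.114), and its r was 0.12 and 0.15 within the number classes. The brightest Adam10 probe set had r = -0.29 (adjusted p = 0.13).

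**Figure D4:**
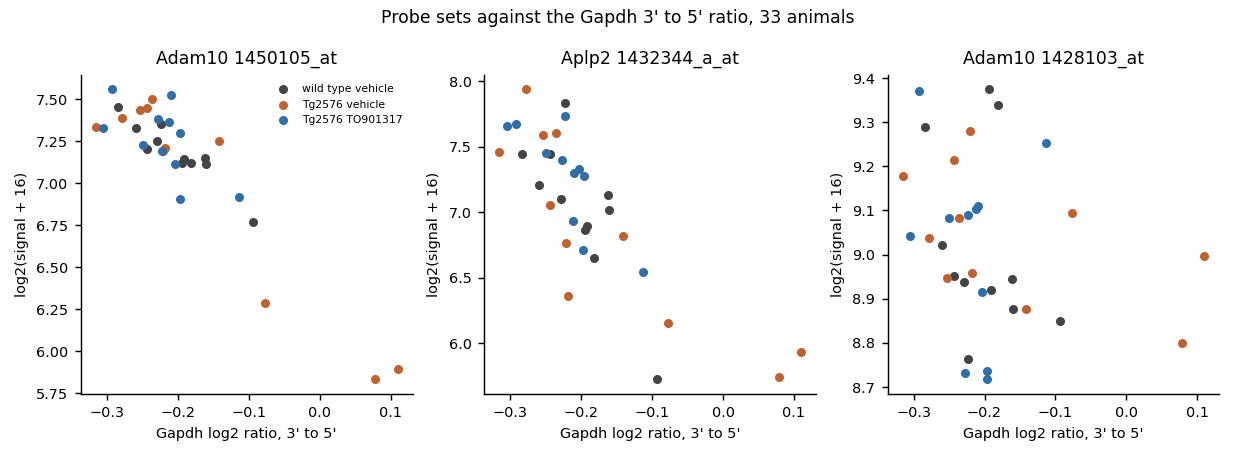
Log2(signal + 16) of Adam10 1450105_at, Aplp2 1432344_a_at and Adam10 1428103_at against the log2 ratio of Gapdh signals, 3′ over 5′; points are 33 animals, coloured by group. The first and second fall as the ratio rises, with vehicle Tg2576 replicates 3 and 4 at 0.11 and 0.08 on the right, and the third, the brightest Adam10 probe set, follows it less (r = -0.29).

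App and Aplp1 were higher in animals numbered 1 to 5 than in those numbered 6 to 11, in each group. The labels give these numbers no meaning beyond naming animals, and the split was noticed in the data. For App 1427442_a_at the log2 difference between the number classes was 0.23 in wild type, 0.07 in vehicle Tg2576 and 0.12 with TO901317. It was 0.20, 0.22 and 0.21 for Aplp1 1435857_s_at and 0.27, 0.29 and 0.26 for Aplp1 1416134_at. The brightest Adam10 probe set was lower in numbers 1 to 5, by -0.27, -0.18 and -0.18. Averaged over the groups, Aplp1 1416134_at differed by 0.27, above 98.8% of all probe sets tested, and App 1427442_a_at by 0.14, above 89.4%. The largest differences went the other way: Aplp2 1432344_a_at differed by -0.42 (above 1.2% of all), Adam10 1450104_at by -0.37 (above 1.9%) and 1450105_at by -0.35 (above 2.3%), and numbers 1 to 5 hold the low vehicle Tg2576 replicates 3, 4 and 5. In vehicle Tg2576 alone these were -1.20, -1.17 and -0.89, and in the other groups between -0.12 and 0.12. With quantile normalization they were -0.39, -0.31 and -0.33, while Aplp1 1416134_at became 0.20 (above 93.9%) and App 1427442_a_at -0.0058 (above 46%), so the App part of the pattern was not seen on that scale. With the number class as a covariate no probe set of the 9 genes passed in any comparison, and the drug difference of App 1427442_a_at had an adjusted p of 0.173.

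**Figure D5:**
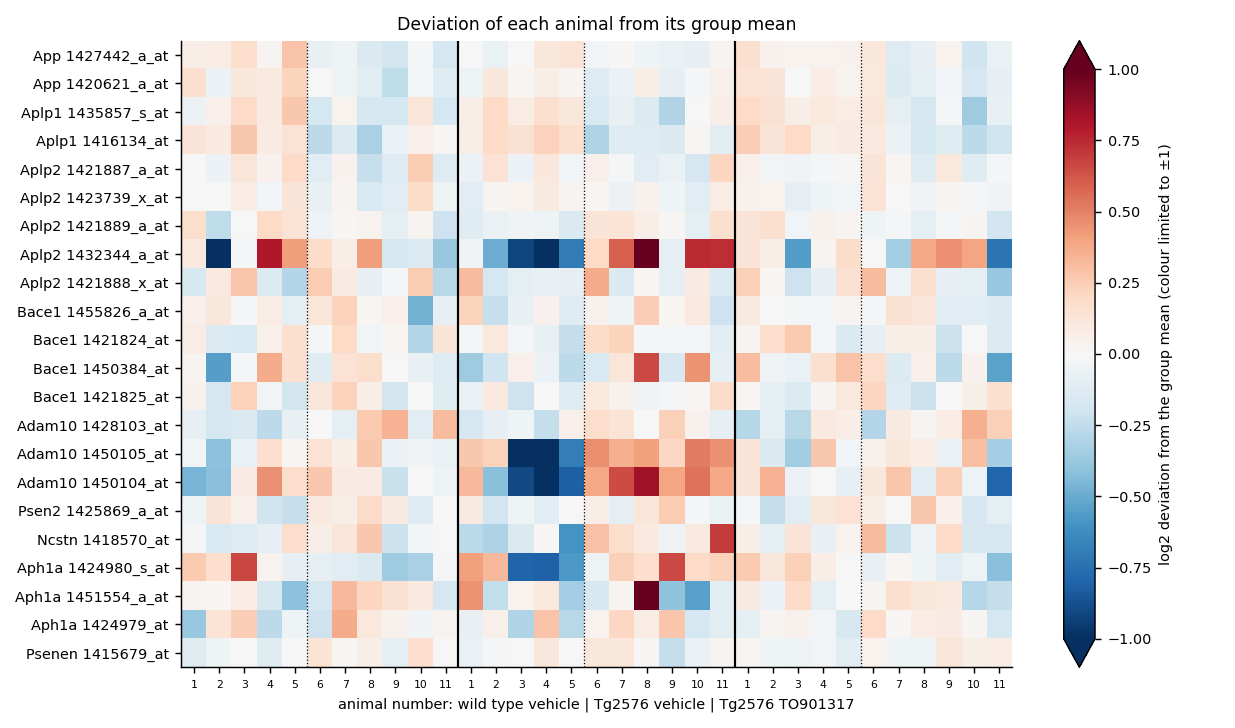
Deviation of each of 33 animals (columns, by group and number) from its group mean for the 22 tested probe sets (rows), as log2 values with colour limited to ±1. Solid lines part the groups and dotted lines part numbers 1 to 5 from 6 to 11; vehicle Tg2576 replicates 3, 4 and 5 are low in Aplp2 1432344_a_at, both dimmer Adam10 probe sets and Aph1a 1424980_s_at.

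Other genes of the pathway were taken from 4 lists of 45 genes, 44 of them named on the array and 42 tested with 87 probe sets. None of these passed in the genotype or the drug comparison, where 14 and 13 of 87 had an unadjusted p under 0.05 (limma), or 16.1% and 14.9% beside 9.7% and 10.5% of all probe sets. The medians were -0.02 and 0.03, against 0.00031 and 0.0037 over all. Of the other sheddases and gamma-secretase paralogs, the legumain gene Lgmn had the smallest p for genotype, at 0.16 on the log2 scale (adjusted p = 0.425), and Adam17, an alternative alpha-secretase, for the drug, at -0.14 (adjusted p = 0.597). Among adaptors that bind the App tail the genes of smallest p were Apbb3 at 0.19 for genotype (adjusted p = 0.188) and Apba1 at 0.20 for the drug (adjusted p = 0.244). Among traffic genes and modulators they were Rtn4, a reticulon, at -0.23 (adjusted p = 0.31) and the small GTPase gene Arf6 at 0.39 (adjusted p = 0.2). Among substrates of the secretases the genes of smallest p were Chl1, a Bace1 substrate, at 0.14 for genotype (adjusted p = 0.296) and Cdh2, N-cadherin, an Adam10 substrate, at 0.51 for the drug (adjusted p = 0.19). Cdh2 had mean signals of 297, 234 and 314 in wild type, vehicle and treated Tg2576.

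The genes whose pattern was most like each member were found from the deviations of 33 animals from their group means, as a description with no test. For App 1427442_a_at these were Dpysl2 (r = 0.90), Rps29 (r = 0.88) and Hnrnpdl (r = 0.87). With quantile normalization the same correlations were 0.61, -0.09 and -0.0095. For Aplp1 they were Gnas (0.90), Itm2b (0.89) and Cox5b (0.88), and 0.64, 0.42 and 0.49 with quantile normalization. Aplp2 went with Cox6c, Cox8a and Ndufs8 (r from 0.79 to 0.81). App and Aplp1 themselves had r = 0.79 as deposited and -0.07 with quantile normalization, App with Aplp2 had 0.60 and 0.0043, and Aplp1 with Aplp2 had 0.66 and 0.27. The variation these 3 genes shared in the deposited signals was thus smaller or not seen after quantile normalization.

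The secretases had likenesses that the scale moved less. Adam10 1428103_at was most like Avl9 (r = 0.87), Ubp1 and Zfp326 (0.83 each), with 0.83, 0.83 and 0.82 after quantile normalization. Aph1a 1424980_s_at went with Dlg4 (0.89), Hnrnpl (0.88) and Atcay (0.87), which were 0.87, 0.88 and 0.86 after it. Within animals numbered 6 to 11, which hold none of vehicle Tg2576 replicates 3 to 5, r for Dlg4 was 0.59 and for Hnrnpl 0.43. Bace1 was most like Etv3 (0.73), 1500004A13Rik and Med13l, Psen2 most like Plaat1 (0.62), Nfia and Eif5b, Ncstn most like Ms4a6c (0.81), Cux2 and Iqcc, and Psenen most like Igf2bp3 (0.73), Ero1b and Nsun2. These points share arrays and their overall signal scale.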

How the data were processed

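Total RNA of the right hippocampus of 33 mice was measured on Affymetrix MOE430 2.0 arrays, 1 per animal, and groups of 11 were taken from the labels. The authors deposited linear array intensity made with MAS5, per the submitters' processing notes. The sources used here give neither its version nor its settings. The mean signal after trimming 2% at each end was 99.7 on every array. Gene names come from GEO's annotation of the platform and can be outdated: 34945 probe sets have 1 gene, 932 several and 9160 none here.

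Signals were taken as log2(signal + 16), so fold changes of dim probe sets are understated. Control probe sets and the lowest 40% by mean, up to a signal of 13.9, were left out. The 27022 probe sets left were fitted with limma 3.58.1 (R 4.3.3), using all arrays, a mean for each group, and eBayes with trend and robust. Benjamini-Hochberg adjustment ran over all of them, with a threshold of 0.05. Probe set ratios were fitted likewise, with the variance trend on the level of the dimmer probe set. Correlations and permutation tests were computed with numpy 2.4.6. Levels of different probe sets are not compared, since probes differ in their response.

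The 9 genes, the pathway and marker lists and the tests were chosen with earlier results of these data known. Named beyond the members were, of each pathway list, the gene of smallest p in the genotype and drug comparisons, and the 3 genes most like each member. The procedures were tested on simulated data. Alternatives covered the pseudocount, the filter, normalization, the probe set rule, the variance model, covariates, the replicate number as a block and each array left out.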

Additional observations from a re-analysis of the deposited data

How the results depend on the processing

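By signal, no probe set of the 9 genes passed under any alternative tried, except 1 in treated Tg2576 against wild type with quantile normalization (App 1420621_a_at). The number classes and all fits of probe set ratios, with their alternatives, were chosen after seeing the data. The counts over all probe sets, 43 for genotype, 38 for the drug, 39 for treated Tg2576 against wild type and 40 for both Tg2576 groups, moved as follows. With the lowest 60% left out, the drug gave 59 and treated Tg2576 against wild type 66. Only the groups compared gave 25 for genotype. With the Gapdh covariate, genotype gave 66, treated against wild type 59 and both groups 67. With marker scores as covariates these were 1, 15 and 5. Without vehicle Tg2576 replicates 3 and 4 the drug gave 9. With the number classes as a covariate, the drug gave 88, treated against wild type 91 and both groups 77. Animals 1 to 5 alone gave 4 for genotype and 0 for the drug, and animals 6 to 11 alone gave 5 for the drug. Leaving out 1 array gave 25 to 58 for genotype, 14 (without treated replicate 6) to 51 for the drug, and 25 to 61 for treated against wild type. The cause of these shifts was not tested.

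The differences whose sign turned did not pass in any fit, and they included that of Aph1a 1424980_s_at, the largest genotype difference of the 22. Quantile normalization gave 0.0018 for Aplp1 1435857_s_at by genotype. Marker scores gave -0.20 for Ncstn and -0.0098 for App 1420621_a_at by genotype, 0.011 for Ncstn by drug, and -0.045 for App 1427442_a_at in treated Tg2576 against wild type. Animals 1 to 5 gave, by genotype, -0.12 for Ncstn, 0.030 for Psenen and -0.015 for App 1420621_a_at, and, by drug, 0.21 for Ncstn and -0.018 for Psenen. Animals 6 to 11 gave, by genotype, 0.034 for Bace1 1455826_a_at, -0.024 for Adam10 1428103_at and 0.18 for Aph1a 1424980_s_at, and, by drug, -0.016 for Bace1 and -0.15 for Aph1a. With 1 array left out, the sign turned for 9 of 22 genotype and 5 of 22 drug differences. Among the brightest probe set of each gene and App 1420621_a_at, those that turned had ranges of -0.063 to 0.0074 for Bace1 and -0.0084 to 0.053 for Adam10 1428103_at by genotype, and -0.064 to 0.0011 for Adam10 1428103_at and -0.13 to 0.0030 for Ncstn by drug. Quantile normalization gave an r of 0.14 for Aplp2 1421887_a_at with 1432344_a_at, -0.0093 for Aph1a 1424980_s_at with 1451554_a_at and 0.34 for the App pair. The App ratio was 0.14 for both Tg2576 groups with the Gapdh covariate, where it passed, and 0.14 to 0.17 for genotype with 1 array left out. The cause was not tested.

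The labels number animals 1 to 11 in every group and do not say that a number marks a shared litter, batch or day. Between vehicle Tg2576 and wild type, treated and vehicle Tg2576, and treated Tg2576 and wild type, 2, 7 and 4 of 11 same-numbered animals had deviations with r over 0.1 (r from -0.15 to 0.263), and 1, 2 and 2 of 11 were most like their own number, so the numbers were not taken as pairs. With the number as a replicate block, 50, 38, 42 and 59 probe sets passed in the comparisons as ordered above, none of the 9 genes, and the App ratio had an adjusted p of 0.276 for genotype and 0.121 for both groups (limma).

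Of the 27 probe sets, 5 were too dim to test, and Psen2 and Ncstn rest on 1 dim probe set each. No value here separates a change in cell makeup from a change per cell, and transcript levels say nothing of protein or enzyme activity.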
